A study of Homo sapiens with 19 samples.

Results

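Solute carriers are membrane proteins that move ions, nutrients and metabolites across the plasma membrane and the membranes of organelles. Each numbered family, such as SLC25 of the inner mitochondrial membrane or the SLC39 zinc importers, tends to share a kind of substrate. The genes described here were selected on 2 criteria in the OCI-LY10 table, a name of the form SLC, number, A, number, and a mean of at least 1 FPKM over its 9 libraries. FPKM, sequenced fragments scaled to transcript length and library size, is a level per length, so levels of different genes can be set side by side. SLC2A1, SLC2A3, SLC16A1 and SLC16A3 were left out by name. Of 334 such names among 25365 genes, 143 were kept and 187 lay under the minimum, 107 of these being listed at 0 in all 9 libraries. SLC15A2 at 0.825 FPKM and SLC18A2 at 0.934 FPKM were just outside, and SLC12A4 at 1.04 FPKM and SLC37A1 at 1.10 FPKM just inside. The name pattern does not take in SLC35B to SLC35G or the SLCO family. The levels that chose the genes are given as a description, without a test.

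OCI-LY10, TMD8 and SUDHL2 are established human lymphoma lines of the activated B-cell type (ABC DLBCL), in which B-cell receptor and Toll-like receptor signals keep NF-kB active. Every RNA library came from cells transduced with a hairpin and given 20 ng/ml doxycycline for 2 days, either a control hairpin (shsc4) or one of 2 hairpins against the transcription factor EGR1, shEGR1#8 and shEGR1#9. OCI-LY10 has 3 libraries per group, and TMD8 and SUDHL2 have 1 per group, 15 in all. Whether same-group libraries of OCI-LY10 stem from separate cultures is not labelled, so the p-values cover the spread among libraries, and that spread may be technical. EGR1 itself did not bear out the labels in OCI-LY10 or TMD8, and in SUDHL2 it was lower with both hairpin labels, with 1 library per group. It stood at 8.57, 9.59 and 12.3 FPKM in the OCI-LY10 controls, at 10.04, 11.4 and 20.5 FPKM in the libraries labelled shEGR1#8, and at 10.8, 11.8 and 22.7 FPKM in those labelled shEGR1#9. It was 7.31, 10.8 and 9.95 FPKM in the control, shEGR1#8 and shEGR1#9 libraries of TMD8, and 17.0, 13.7 and 15.4 FPKM in those of SUDHL2. Groups are therefore named by their labels, and a direction below is one between labels.

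Some libraries stood apart. Short RNA genes took 36.3% of the FPKM in the TMD8 control library but 61.5% and 58.0% in its hairpin libraries. The share was 50.4 to 54.4% in SUDHL2 and 0.470 to 0.612% in OCI-LY10. Over the 143 genes, log2 levels of TMD8 and SUDHL2 libraries correlated at r = 0.931 to 0.985, a range that overlaps that within TMD8 (0.961 to 0.984). The TMD8 library with #9 correlated at 0.961 with the TMD8 control and at 0.981 to 0.985 with SUDHL2 libraries. For the TMD8 library with #8 these were 0.963 and 0.963 to 0.976. What set this likeness was not tested. OCI-LY10 libraries correlated with TMD8 libraries at 0.704 to 0.753. These coefficients are over genes of libraries whose tables may have been normalized separately, and are descriptions only. Within OCI-LY10, shEGR1#8 replicate 3 correlated with the other libraries at 0.968 to 0.988, and pairs without it correlated at 0.985 to 0.996. B-cell markers were present: all 8 on the list were tested in OCI-LY10, and none of 9 T and NK cell markers reached the minimum level there. In TMD8, KLRD1 of that list reached 2.19 FPKM with #8. Of 10 fibroblast and epithelial markers, 1 was tested in OCI-LY10, EPCAM, with means of 6.13 FPKM in controls, 7.58 with #8 and 7.38 with #9, and it did not pass. EPCAM was listed at 0 in TMD8 and SUDHL2, where CDH1 stood at 17.6 to 35.4 FPKM and KRT8 at 3.90 to 6.70 FPKM.

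To show the start of the genes on which the results turn, 5 promoters of 300 bases around the gene's start are printed, from RefSeq on GRCh38.p14, 5′ to 3′ on the gene's strand. EGR1 is known to bind GCGTGGGCG, and capitals mark matches, on either strand, to the looser letters GCGNGGGCG. SLC39A8 had the largest fall among the called carriers on the average of both labels, SLC25A17 had the lowest adjusted p, SLC5A5 was the most highly expressed gene that rose, SLC5A3 was the called gene with marked matches, and SLC11A2, which did not pass the test, is shown for its match to GCGTGGGCG.
SLC39A8, chr4:102345204-102345503, minus strand: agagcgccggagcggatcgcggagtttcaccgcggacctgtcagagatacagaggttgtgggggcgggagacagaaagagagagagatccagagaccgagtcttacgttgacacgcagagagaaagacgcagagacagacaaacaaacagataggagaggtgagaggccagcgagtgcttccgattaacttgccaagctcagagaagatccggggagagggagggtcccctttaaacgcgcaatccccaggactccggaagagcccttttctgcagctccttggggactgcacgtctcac
SLC25A17, chr22:40819297-40819596, minus strand: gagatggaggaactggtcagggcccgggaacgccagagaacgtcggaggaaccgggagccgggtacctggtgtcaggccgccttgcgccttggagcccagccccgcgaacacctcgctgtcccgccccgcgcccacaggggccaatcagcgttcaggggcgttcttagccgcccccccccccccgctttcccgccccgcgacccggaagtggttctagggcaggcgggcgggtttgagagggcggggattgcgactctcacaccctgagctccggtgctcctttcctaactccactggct
SLC5A3, chr21:34073328-34073627, plus strand: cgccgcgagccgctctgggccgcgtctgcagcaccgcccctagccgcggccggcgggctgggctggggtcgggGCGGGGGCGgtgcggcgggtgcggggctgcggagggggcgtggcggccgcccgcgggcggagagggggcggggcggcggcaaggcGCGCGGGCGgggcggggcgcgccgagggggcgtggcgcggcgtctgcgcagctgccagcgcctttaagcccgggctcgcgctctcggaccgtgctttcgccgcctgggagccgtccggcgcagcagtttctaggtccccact
SLC5A5, chr19:17871695-17871994, plus strand: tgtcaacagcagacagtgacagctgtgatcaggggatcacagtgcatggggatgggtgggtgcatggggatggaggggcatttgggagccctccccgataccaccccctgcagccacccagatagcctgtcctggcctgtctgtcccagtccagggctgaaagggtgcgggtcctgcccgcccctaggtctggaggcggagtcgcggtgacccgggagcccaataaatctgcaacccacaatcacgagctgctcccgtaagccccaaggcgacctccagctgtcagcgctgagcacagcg
SLC11A2, chr12:51026335-51026634, minus strand: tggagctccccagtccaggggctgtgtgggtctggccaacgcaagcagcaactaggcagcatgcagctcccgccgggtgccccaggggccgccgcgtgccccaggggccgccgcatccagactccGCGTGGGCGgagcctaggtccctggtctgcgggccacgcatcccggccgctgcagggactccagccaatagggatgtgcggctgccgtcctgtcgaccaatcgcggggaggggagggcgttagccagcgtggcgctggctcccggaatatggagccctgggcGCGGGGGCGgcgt
A promoter was found for 118 of the 143 genes. GCGNGGGCG was in 21 of them (17.8%), against 9.28% of all 27305 promoters and 15.2% of those of the tested genes. The stricter GCGTGGGCG, whose matches are also matches to GCGNGGGCG, was in 2 (1.70%), SLC11A2 and SLC39A3, against 1.33% of those of the tested genes. The GC box GGGCGG, bound by SP and KLF factors, was in 72.0%, against 71.0% of those of the tested genes. Carrier promoters thus held these letters about as often as promoters of the tested genes. Of the 7 called genes with a promoter, 1 held GCGNGGGCG, SLC5A3, with 2 matches. A match is a description of these letters and not a binding site.

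The SLC25 family, most of whose members are mitochondrial carriers, made up the largest share of solute carrier RNA in OCI-LY10. Its 37 genes held 43.4% of the summed FPKM of the 143 genes, and the 23 genes of the amino acid and peptide families held 20.5%. Groups were set by family and not gene by gene, so the amino acid group counts SLC43A3, which carries purine nucleobases. The 22 carriers of zinc, copper, iron and magnesium held 9.57%, the 13 of nucleosides, vitamins and lipid precursors 8.93%, and the 14 of the sugar and sodium-coupled families 8.13%. The 20 carriers of inorganic ions held 4.53%, the 5 nucleotide sugar carriers of the Golgi and endoplasmic reticulum 2.93%, and the 9 of organic acids, organic cations and vesicles 2.01%. The median gene stood at 8.05 FPKM over the 9 libraries, and 53 genes lay under 5 FPKM, 57 from 5 to under 20, 28 from 20 to under 100 and 5 at 100 or more. SLC25A5, the main ADP/ATP carrier of dividing cells, was highest at 386 FPKM and alone held 13.4% of the sum. It was followed by SLC25A39, needed for mitochondrial glutathione import, at 169 FPKM, and by SLC25A3, the mitochondrial phosphate and copper carrier, at 121 FPKM. SLC29A1, an equilibrative nucleoside carrier, stood at 109 FPKM, SLC2A5, the fructose carrier GLUT5, at 103 FPKM, and SLC43A3, a purine nucleobase carrier, at 97.4 FPKM. These 6 genes held 34.1% of the sum.

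**Figure D1:**
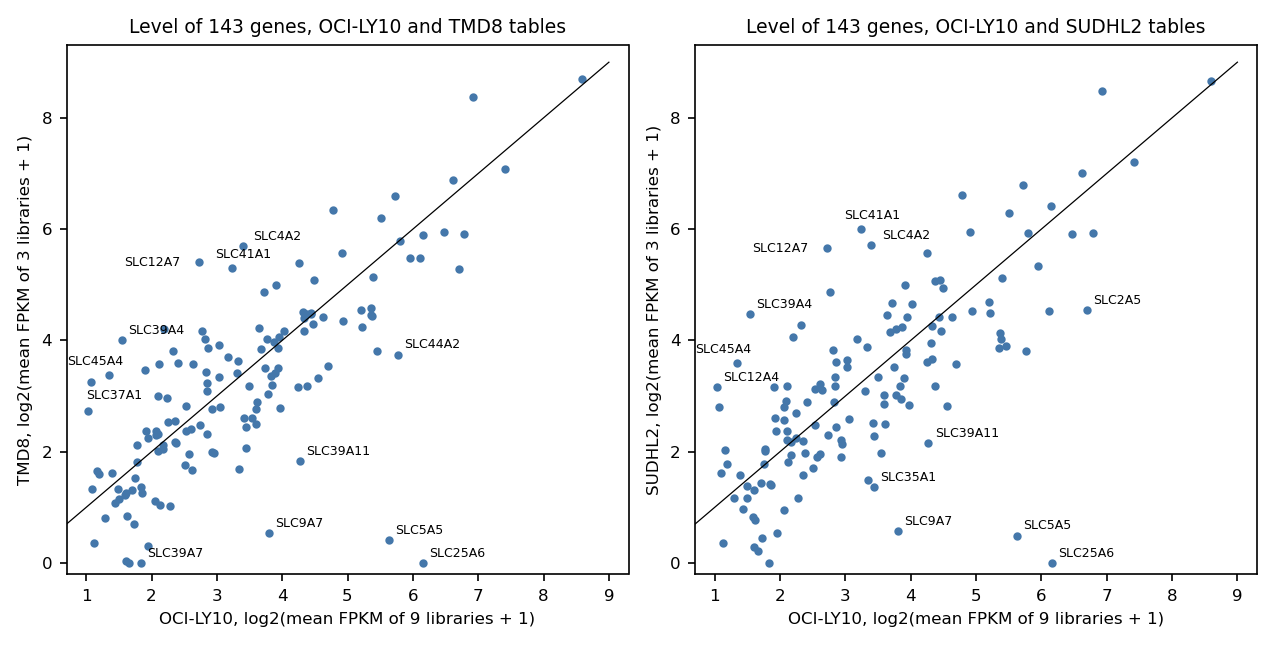
Level of each of the 143 genes, as log2(mean FPKM + 1), in OCI-LY10 (horizontal axis, 9 libraries) and in TMD8 or SUDHL2 (vertical axis, 3 libraries each), where a point is a gene and the line marks equal levels. SLC5A5 and SLC9A7 lie far below the line in both panels, and SLC12A7, SLC41A1 and SLC4A2 above it; SLC25A6 is listed at 0 in TMD8 and SUDHL2.

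Levels across lines are given side by side as descriptions, with no test. SLC5A5, the sodium and iodide symporter of the thyroid, averaged 48.5 FPKM in OCI-LY10, 0.330 in TMD8 and 0.404 in SUDHL2. SLC9A7, a sodium and proton exchanger of the Golgi, averaged 13.0 FPKM, against 0.445 and 0.480. SLC44A2, a choline carrier, stood at 53.4 FPKM against 12.4 and 13.0, and SLC2A5 at 103 FPKM against 38.0 and 22.3. The order was the reverse for SLC12A7, a potassium and chloride cotransporter, at 5.60 FPKM in OCI-LY10 against 41.6 and 49.4. SLC41A1, a magnesium carrier, stood at 8.42 FPKM against 38.4 and 63.1, and SLC39A4, a zinc importer, at 1.92 FPKM against 15.01 and 21.2. SLC25A3 stood at 121 FPKM against 329 and 357. Under 1 FPKM in all 3 libraries were 10 of the 143 genes in TMD8 and 11 in SUDHL2. The choice of genes by their OCI-LY10 level leaves out carriers seen in the other lines alone. SLC25A6, an ADP/ATP carrier at 70.3 FPKM in OCI-LY10, and SLC39A7, a zinc exporter of the endoplasmic reticulum, were listed at 0 in all 6 TMD8 and SUDHL2 libraries. Of the genes within 10 positions on either side that reached 1 FPKM in OCI-LY10, 9 of 9 around SLC25A6 and 8 of 9 around SLC39A7 were also listed at 0 in all 6, against 2.15% of all genes at that level, so their 0 is uncertain. This look at neighbours was chosen after the zeros were seen.

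Between the labels of OCI-LY10, 8 of the 143 carriers changed, all by less than 1.5-fold as log2(FPKM + 1), a scale that compresses changes at low levels. SLC39A8, a zinc and manganese importer, SLC5A3, a myo-inositol importer, and SLC25A17, a peroxisomal carrier of coenzyme A and related cofactors, were lower with the EGR1 hairpin labels. SLC25A45, SLC12A8, SLC26A11, SLC5A5 and SLC41A1 were higher. In FPKM as deposited, group means differed by more than 1.5-fold for SLC25A45 (1.33 FPKM in controls, 2.14 with #8, 2.01 with #9) and SLC26A11 (1.03, 1.69 and 1.61 FPKM). They also did so for SLC39A8 with #8 only (6.77 and 4.38 FPKM) and for SLC12A8 with #9 only (1.54 and 2.42 FPKM). The test was limma with a mean-variance trend, on the average of both hairpin contrasts, and a gene was called at an adjusted p under 0.05 over all 10612 genes tested. The 5 higher genes are 3.50% of the 143 and the 3 lower 2.10%, while over all genes tested 5.84% were called higher and 2.71% lower. In this fit the shares of carriers called were no larger than those of genes in general. Scaling moved the balance, to 4 higher (2.80%, against 4.96% of all genes) and 8 lower (5.59%, against 3.57%) with median-ratio scaling, and to 2 higher (1.40%, against 4.18%) and 6 lower (4.20%, against 3.46%) with quantile normalization. The median difference was 0.03 log2 units both for the carriers and for all genes. Unadjusted p was under 0.05 for 34 carriers (23.8%), where 26.1% of all genes tested had such a p. In bulk RNA, fewer cells of a type and less RNA per cell cannot be told apart. The B-cell marker list had a median difference of 0.03 and summed to 2721 to 2957 FPKM in controls, 3396 to 4083 with #8 and 3508 to 3848 with #9. In it CD79A and CD74 passed as higher (means of 591 and 705 FPKM in controls, 939 and 1254 with #8, 916 and 1280 with #9), while the means of MS4A1 were 323, 272 and 272 FPKM and those of IRF4 105, 95.4 and 95.3 FPKM, neither of which passed. The myeloid list, with 5 of 8 markers at 0 and CD68 called higher, summed to 0.674 to 1.17, 1.38 to 1.73 and 1.90 to 2.07 FPKM. The calls of CD79A and CD68 were lost without control replicate 2 (limma adjusted p = 0.0527 and 0.0517) or 3 (0.0547 and 0.0558). The part of these marker lists in the result was not tested.

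**Figure D2:**
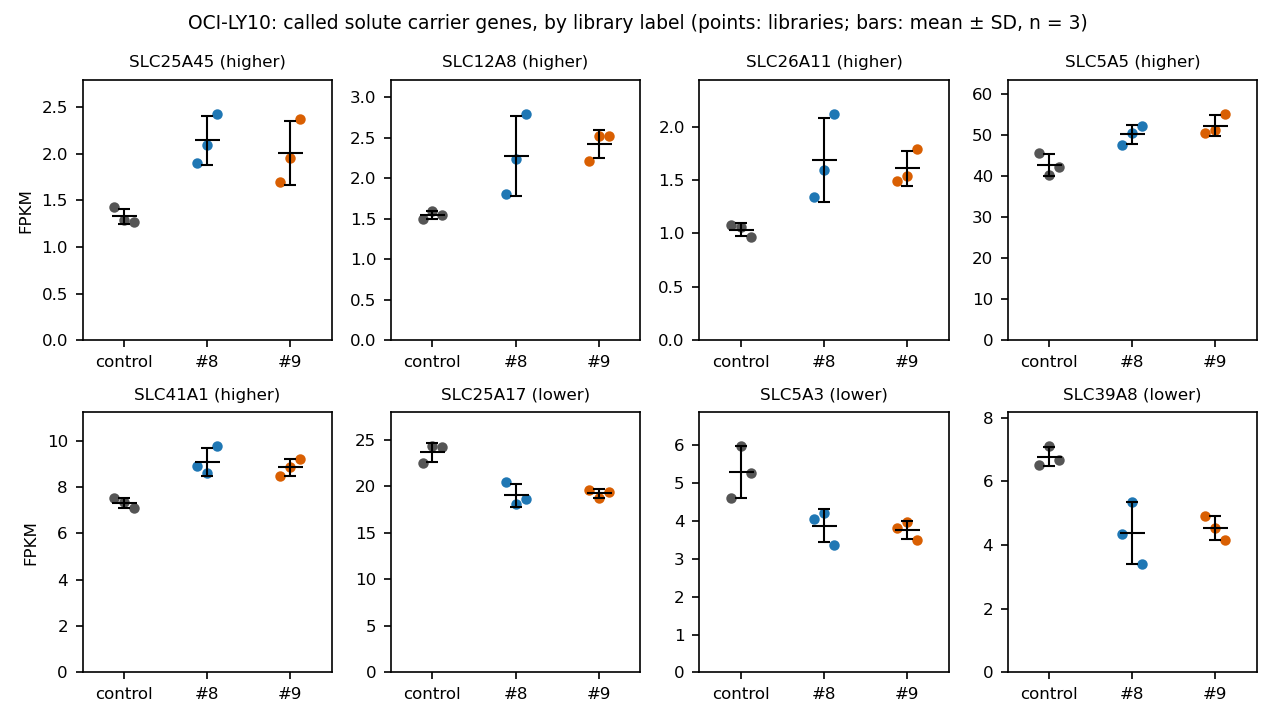
FPKM of the 8 called genes in each OCI-LY10 library (points), by hairpin label, with the mean and SD of 3 libraries (bars) and every vertical axis starting at 0. No control library overlaps a hairpin-labelled library in any panel, but the genes were called on these same libraries, so this adds no separate support. Of all genes tested, 12.9% had all 6 hairpin-labelled libraries above all controls and 8.22% below. SLC39A8 falls from a mean of 6.77 FPKM to 4.38 and 4.53 FPKM.

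SLC39A8 encodes ZIP8, which brings zinc and manganese into cells and is known as a target of NF-kB. It stood at 6.53, 7.11 and 6.67 FPKM in the controls, at 4.34, 5.37 and 3.42 FPKM with #8, and at 4.92, 4.52 and 4.15 FPKM with #9. Each of the 6 libraries with a hairpin label was lower than the lowest control, as in 8.22% of all genes tested. The difference was −0.52 log2 units (SE 0.11, limma adjusted p = 0.019). It was called with #8 alone (−0.55, adjusted p = 0.0391) and not with #9 alone (−0.49, adjusted p = 0.0565).

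SLC25A17 was at 22.5, 24.3 and 24.2 FPKM in the controls, at 20.4, 18.1 and 18.6 FPKM with #8, and at 19.6, 18.7 and 19.4 FPKM with #9. It was called with each hairpin label by itself, at an adjusted p of 0.0303 with #8 and 0.0371 with #9 in limma. Both single-label calls were lost with the replicate number as a block (0.0657 and 0.0779), and without control replicate 1 (0.0739 and 0.0818), 2 (0.113 and 0.142) or 3 (0.135 and 0.155). They were also lost without shEGR1#9 replicate 1 (0.0576 and 0.0960), 2 (0.0602 and 0.152) or 3 (0.0542 and 0.127), and that with #8 without shEGR1#8 replicate 2 (0.0594). On the average of both labels the difference was −0.29 (SE 0.055, limma adjusted p = 0.0137). SLC5A3 was at 4.60, 5.97 and 5.27 FPKM in the controls, at 4.04, 4.21 and 3.37 FPKM with #8, and at 3.81, 3.96 and 3.50 FPKM with #9. Its difference was −0.38 (SE 0.086, limma adjusted p = 0.0285). The gene overlaps MRPS6, a mitochondrial ribosomal protein gene at 57.3 FPKM whose own difference was −0.10 (adjusted p = 0.491). How the authors split reads between overlapping genes is not given, so SLC5A3 is uncertain.

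Of the 5 higher carriers, 3 stood near the minimum level. SLC25A45, a mitochondrial carrier, was at 1.42, 1.29 and 1.27 FPKM in the controls, at 1.90, 2.10 and 2.43 FPKM with #8, and at 1.70, 1.95 and 2.37 FPKM with #9 (difference 0.40, SE 0.088, limma adjusted p = 0.0258). It overlaps FRMD8, a gene at 14.3 FPKM with a difference of 0.06, and is uncertain for the same reason. SLC12A8, of the cation and chloride cotransporter family, went from 1.49, 1.60 and 1.54 FPKM to 1.80, 2.23 and 2.79 with #8 and 2.22, 2.52 and 2.52 with #9 (difference 0.39, SE 0.094, limma adjusted p = 0.0361). SLC26A11, a sulfate carrier, went from 1.08, 1.06 and 0.964 FPKM to 1.34, 1.60 and 2.12 with #8 and 1.49, 1.54 and 1.79 with #9 (difference 0.37, SE 0.095, limma adjusted p = 0.0438). In each of these genes the highest control lay below the lowest hairpin-labelled library, as in 12.9% of all genes tested.

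The other higher carriers were more abundant. SLC5A5 was at 45.6, 40.3 and 42.2 FPKM in the controls, at 47.7, 50.7 and 52.3 FPKM with #8, and at 50.7, 51.3 and 55.2 FPKM with #9 (difference 0.26, SE 0.058, limma adjusted p = 0.0263). SLC41A1 was at 7.51, 7.35 and 7.09 FPKM in the controls, at 8.91, 8.59 and 9.76 FPKM with #8, and at 8.47, 8.86 and 9.20 FPKM with #9 (difference 0.26, SE 0.055, limma adjusted p = 0.0226). Both rose by small amounts that exceeded the spread of their replicates.

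Leaving out a library often ended a call while the differences stayed of like size. Without control replicate 1, limma called 3 of the 8, without control replicate 2 or without control replicate 3 it called none of them, without shEGR1#8 replicate 2 it called 7, and without shEGR1#9 replicate 1, 2 or 3 it called 5, 2 and 3. All genes called numbered 908, and 314, 315 and 285 without control replicate 1, 2 or 3 and 683, 534 and 539 without shEGR1#9 replicate 1, 2 or 3. The sign of the difference was the same under all 15 alternatives for each of the 8. With a library left out, that of SLC39A8 ran from −0.58 to −0.45, that of SLC25A17 from −0.33 to −0.27 and that of SLC12A8 from 0.33 to 0.44.

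With #8 alone, limma called 2 carriers higher and 2 lower, where 3.71% of all genes were called higher and 1.62% lower. The lowest difference with #8 alone, noted after the values were seen, was that of SLC35A3, a nucleotide sugar carrier, at −0.74 (SE 0.23, limma adjusted p = 0.101), with means of 5.21 FPKM in controls, 2.91 with #8 and 4.19 with #9. With #9 alone it called 1 higher and 1 lower, against 3.55% and 1.54% of all genes. Between #9 and #8, limma called no carrier, and 0.0% of all genes in either direction, with 2 carriers at an unadjusted p under 0.05. The 95% interval of that difference lay within 1.5-fold as log2(FPKM + 1) for 133 of the 143 carriers. Counting libraries instead, 14 carriers (9.79%) had all 6 hairpin-labelled libraries above all controls, where 12.9% of all genes tested did, and 15 (10.5%) had all 6 below, where 8.22% did.

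**Figure D3:**
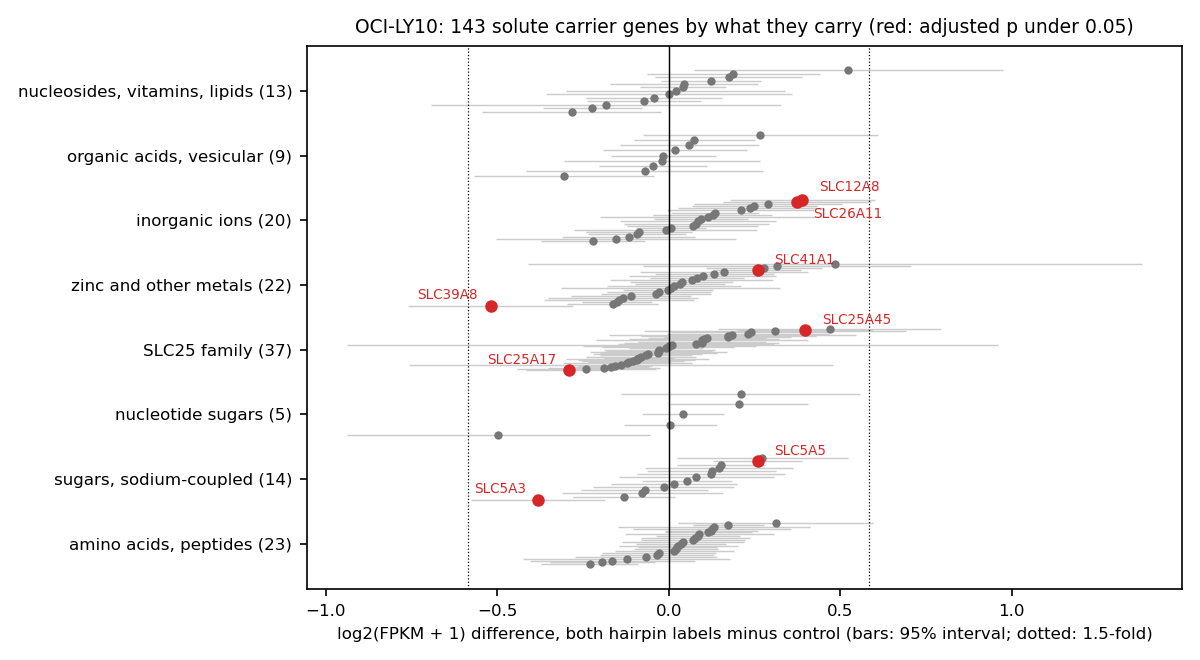
Difference of log2(FPKM + 1) between both EGR1 hairpin labels and control in OCI-LY10 (horizontal axis) for 143 carriers in substrate groups set by family (vertical axis, number of genes in brackets). Bars are 95% intervals, dotted lines mark 1.5-fold and the 8 called genes are in red. All points lie between −0.52 and 0.52.

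For most carriers the 95% interval of the difference in log2(FPKM + 1) was narrow. These intervals cover the spread among libraries, which may be technical, and may not cover that among cultures. The log2(FPKM + 1) scale compresses changes at low levels, and 53 of the 143 genes lay under 5 FPKM. The intervals are therefore not bounds on the fold in FPKM. The differences ran from −0.52 to 0.52 log2 units, 84 above 0 and 59 below, and the 95% interval lay within 1.5-fold for 128 of the 143 and within 2-fold for 142. By substrate group, set by family, 2 of 20 inorganic ion carriers were higher and none lower (SLC12A8 and SLC26A11, median 0.09). In the SLC25 family 1 of 37 was higher (SLC25A45) and 1 lower (the peroxisomal SLC25A17, median −0.03). Of 22 metal carriers 1 was higher and 1 lower (SLC41A1 and SLC39A8, median 0.02), and of 14 in the sugar and sodium-coupled families 1 was higher and 1 lower (SLC5A5 and SLC5A3, neither of which carries a sugar, median 0.07). In limma none of the 23 genes of the amino acid and peptide families, SLC43A3 among them, passed (median 0.04, 4 at an unadjusted p under 0.05). Nor did any of the 13 nucleoside, vitamin and lipid precursor carriers (3 unadjusted), the 9 organic acid and vesicular carriers (1) or the 5 nucleotide sugar carriers (2). These medians stand beside 0.03 over all genes.

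Carriers induced by amino acid shortage did not pass the test in any of 7 members (limma, 1 at an unadjusted p under 0.05), and their median difference was 0.07. SLC7A5, which imports large neutral amino acids together with SLC3A2, was at 51.2, 51.8 and 45.8 FPKM in the controls, at 48.5, 49.1 and 63.9 FPKM with #8, and at 48.5, 51.4 and 56.6 FPKM with #9 (difference 0.09, limma adjusted p = 0.583). SLC1A4, a neutral amino acid carrier, came closest to the threshold, at 38.0, 36.2 and 36.2 FPKM in the controls and 39.8 to 42.8 FPKM in the 6 hairpin-labelled libraries (difference 0.17, SE 0.046, limma adjusted p = 0.0502). It passed without a filter (0.0376), with library weights (0.00826) and without shEGR1#8 replicate 3 (0.0196). SLC3A2 (0.09), SLC7A1 (0.02), SLC1A5 (0.07), SLC38A2 (−0.03) and SLC6A9 (0.04) differed by less.

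None of the 9 tested endosome and lysosome carriers passed in limma (2 at an unadjusted p under 0.05), with a median of 0.07. SLC38A9, which reports lysosomal arginine to mTORC1, differed by 0.08, and SLC15A4, a histidine and peptide carrier needed for Toll-like receptor signalling, by 0.03. SLC36A1 (0.12), SLC17A5 (0.06), SLC11A2 (0.07), SLC48A1 (0.02) and SLC36A4 (0.03) did not pass either. SLC15A3, a peptide carrier induced by interferon, was at 11.1, 10.5 and 9.26 FPKM in the controls, 12.1, 12.3 and 17.9 FPKM with #8 and 10.9, 11.8 and 13.6 FPKM with #9, so its groups overlapped (difference 0.31, limma adjusted p = 0.157). SLC25A28, an iron carrier of mitochondria also known to respond to interferon, differed by 0.19 (adjusted p = 0.492).

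Among the ADP/ATP and phosphate carriers none of 4 passed in limma (1 at an unadjusted p under 0.05), with a median of −0.10. SLC25A5 was at 419, 420 and 410 FPKM in the controls, at 372, 376 and 380 FPKM with #8 and at 383, 373 and 339 FPKM with #9. No hairpin-labelled library reached the lowest control, and the adjusted p missed the threshold (difference −0.17, SE 0.049, limma adjusted p = 0.0688). SLC25A5 passed as lower with median-ratio scaling (−0.20, adjusted p = 0.0494) and with library weights (adjusted p = 0.0269). SLC25A3 differed by −0.12, SLC25A4 by −0.09 and SLC25A6 by 0.17. Of the other highly expressed carriers, SLC25A39 differed by 0.10, SLC29A1 by −0.07, SLC2A5 by −0.13 and SLC43A3 by 0.04, all with an adjusted p above the threshold.

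Genes that work with carriers were counted from lists, beside the 5.84% of all genes called higher and 2.71% lower. Of 16 tested genes listed for amino acid sensing, 2 were higher (GATS and RRAGB) and none lower, with a median of 0.08. That list is meant to hold genes that couple carriers to mTORC1, and whether GATS does so is uncertain. Of 7 partner proteins and receptors, TFRC, the transferrin receptor, was lower and none was higher (median −0.13). These calls were not firm. GATS lost its call with median-ratio scaling (adjusted p = 0.0661), quantile normalization (0.129) and the replicate block (0.0796), and at 0.0869 to 0.179 without any 1 of the control or shEGR1#9 replicates. TFRC lost it with quantile normalization (0.0510) and no filter (0.0529), and at 0.0666 to 0.139 without a control replicate or shEGR1#9 replicate 2 or 3. RRAGB lost it without control replicate 1 (0.0864) or 2 (0.0776). None of 4 zinc response genes, 3 WNK and SPAK kinases or 4 subunits of the volume-regulated anion channel passed in limma, with 1, 1 and 0 at an unadjusted p under 0.05. Of the 3 tested glucose and lactate carriers left out by name, 1 was higher (SLC16A3). Among 19 tested carriers of the SLC35B to SLC35G and SLCO names 1 was higher, and among 18 ABC transporters none was, with 4 at an unadjusted p under 0.05.

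In TMD8, 17 of 132 carriers measured (12.9%) were more than 1.5-fold lower in both hairpin-labelled libraries than in the control library, and 1 was higher. Over all 11078 genes at a mean of 1 FPKM or more, 12.7% were lower and 7.84% higher by the same rule, so the lower share was near that of all genes. Differences are of log2(FPKM + 1) less the median over all genes (−0.11 with #8 and −0.01 with #9), 1 library stands for each group, there is no replicate check, and both hairpins share 1 control library, the one whose short RNA share stood apart. Of the 17 lower carriers, 8 were of the SLC25 family, among 36 measured. Whether that family differed from the other carriers was not tested. SLC39A8 differed the most, from 21.1 FPKM to 4.83 and 6.96 FPKM (−1.82 and −1.46). SLC25A24, a mitochondrial ATP and phosphate carrier, went from 11.1 to 4.87 and 4.32 FPKM, and SLC30A9, a mitochondrial zinc exporter, from 34.5 to 16.2 and 14.9 FPKM. SLC25A46, an outer membrane protein, went from 32.6 to 14.1 and 16.6 FPKM, SLC25A17 from 32.4 to 15.4 and 16.2 FPKM, and SLC25A5 from 557 to 323 and 363 FPKM. SLC7A5 was the one higher carrier, from 66.4 to 93.0 and 126 FPKM.

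**Figure D4:**
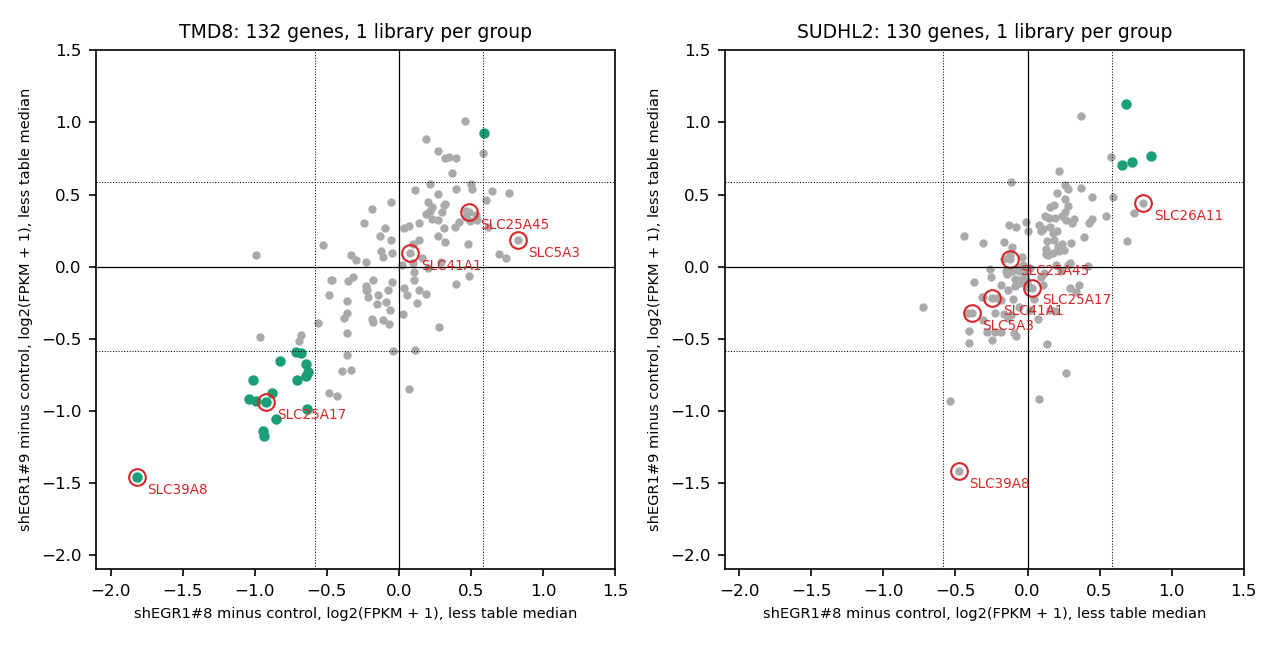
Difference of log2(FPKM + 1) from the control library, less the table's median, with shEGR1#8 (horizontal axis) and shEGR1#9 (vertical axis) in TMD8 (132 genes) and SUDHL2 (130 genes), with 1 library per group. Green points are past 1.5-fold (dotted lines) in both libraries, and red rings mark genes called in OCI-LY10 that were measured there; SLC39A8 lies at −1.82 and −1.46 in TMD8.

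In SUDHL2, 4 of 130 carriers (3.08%) were more than 1.5-fold higher in both hairpin-labelled libraries and none was lower, where 3.76% of all 11023 genes were higher and 2.0% lower. SLC2A6, a lysosomal hexose carrier, went from 3.68 to 6.56 and 9.28 FPKM, and SLC25A42, the mitochondrial coenzyme A carrier, from 1.03 to 2.70 and 2.48 FPKM. SLC26A6, an anion exchanger, went from 5.45 to 9.71 and 9.73 FPKM, and SLC12A7 from 34.8 to 55.8 and 57.7 FPKM. The hairpin libraries share the control library here too. In OCI-LY10 these 4 differed by 0.12, 0.10, 0.09 and −0.01 and did not pass.

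For the 8 genes called in OCI-LY10, the 4 hairpin-labelled libraries of TMD8 and SUDHL2, which share 1 control in each line, were set against that control on FPKM as deposited. All 4 lay on the side of the OCI-LY10 call for SLC39A8, SLC12A8 and SLC26A11. SLC39A8 in SUDHL2 went from 11.3 to 7.89 and 3.64 FPKM (−0.48 and −1.42). SLC12A8 went from 0.369 to 1.08 and 0.922 FPKM in TMD8 and from 0.349 to 0.832 and 0.956 FPKM in SUDHL2, and SLC26A11 from 0.453 to 0.806 and 0.964 FPKM and from 0.641 to 1.88 and 1.23 FPKM, mostly around the 1 FPKM at which a gene counted as measured. For SLC25A45, SLC5A5 and SLC25A17 3 of 4 did, for SLC5A3 2 and for SLC41A1 1, and SLC5A5 was near 0 in TMD8 and SUDHL2. The share of all genes with all 4 libraries on a side was not counted. Over all genes measured, both hairpin-labelled libraries lay on a given side of the control, relative to the median over all genes, for 39.9% in TMD8 and 36.6% in SUDHL2. By that rule, of the higher genes measured, 2 of 2 in TMD8 and 1 of 3 in SUDHL2 lay on the side of the OCI-LY10 call. Of the lower genes, 2 of 3 did in TMD8 and 2 of 3 in SUDHL2. These sides were not tested.

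**Figure D5:**
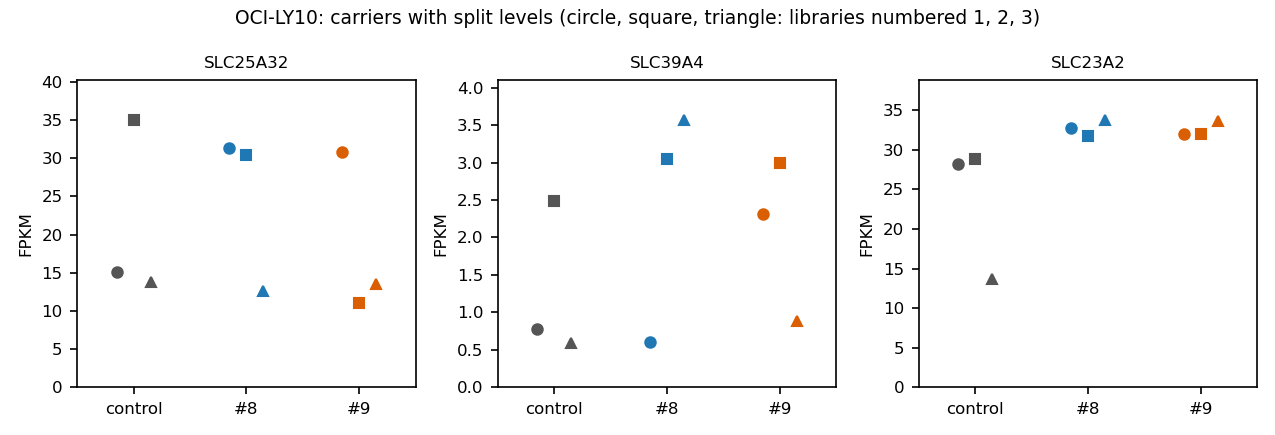
FPKM of 3 carriers in each OCI-LY10 library, by hairpin label (horizontal axis), with circle, square and triangle for the libraries numbered 1, 2 and 3. SLC25A32 lies either at 30.4 FPKM and above or at 15.1 FPKM and below within every group.

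Most carriers varied little among the 9 libraries. The highest value was a median of 1.39 times the lowest, 88 carriers stayed under 1.5-fold and 18 reached 2-fold. The median coefficient of variation was 5.90% in controls, 12.6% with #8 and 7.27% with #9. A few carriers, named after their values were seen, split within groups. SLC25A32, a mitochondrial folate and FAD carrier, was at 15.1, 35.0 and 13.8 FPKM in the controls, 31.3, 30.4 and 12.6 FPKM with #8 and 30.9, 11.0 and 13.5 FPKM with #9. SLC39A4 was at 0.779, 2.49 and 0.595 FPKM in the controls, 0.600, 3.04 and 3.57 FPKM with #8, and 2.31, 3.00 and 0.889 FPKM with #9. In both genes high and low libraries occurred under every label, and their SE (0.42 and 0.40) was far above the median of 0.085. SLC23A2, a vitamin C carrier, was at 28.2 and 28.8 FPKM in 2 controls and 13.7 FPKM in control replicate 3, against 31.7 to 33.7 FPKM in the hairpin-labelled libraries, and did not pass (difference 0.52, SE 0.20, limma adjusted p = 0.138). What set these splits was not tested.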

How the data were processed

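RNA of 15 libraries was analysed, and 4 chromatin samples were not analysed here. Libraries were grouped by title and treatment label. The deposited tables give 1 value per gene and library, read as FPKM from the values, because the labels and headers name no unit. The tools named, per the submitters' processing notes, are Bowtie2, HISAT and StringTie, with build hg19. Their versions, the annotation, strand use and scaling were not given in those sources. Read counts are unknown, so no counting interval is given. Repeated or broken lines (4, 10 and 10) and 430 lines of another table appended to the SUDHL2 file were left out, and 28 names per table have the form of a date.

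The carriers, their substrate groups and the other lists were chosen with earlier results of these data known. In OCI-LY10, genes with at least 1 FPKM in at least 3 libraries (10612, all 143 carriers among them) were fitted as log2(FPKM + 1) with a trended limma model (limma 3.58.1 in R 4.3.3) of 3 group means. P-values were adjusted by Benjamini-Hochberg over all genes. In TMD8 and SUDHL2, differences from the single control library less the table median were described at a fold of 1.5, without a test. Tables were handled separately. Named were up to 12 called genes in each direction, the 6 most abundant, 4 lists in full (save for a gene not reported here), up to 4 per direction in TMD8 and SUDHL2, those at the level minimum, up to 6 genes of other lists and EGR1. Others are said to be chosen after seeing values. Alternatives were other scalings, pseudocounts and filters, library weights, a replicate block and leaving out each library. Deviations from group means of same-numbered #8 and #9 libraries correlated at 0.13 to 0.26. Pairs of libraries with unlike numbers reached 0.18, so the replicate numbers do not settle a pairing. The procedure was tested on simulated data. Python 3.11.15 with pandas 2.3.3 was used for the rest.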

Additional observations from a re-analysis of the deposited data

Results flagged for a closer look

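Called carriers went the other way in both hairpin-labelled libraries of another line in 2 cases, and the difference between lines was not tested, with 1 library per group in that line. SLC41A1, higher in OCI-LY10 (0.26), was at 70.0, 59.2 and 60.2 FPKM in the control, shEGR1#8 and shEGR1#9 libraries of SUDHL2, a mean difference of −0.23 log2 units from the control. SLC5A3, lower in OCI-LY10 (−0.38), was at 8.60, 14.8 and 9.79 FPKM in TMD8, a mean difference of 0.50 log2 units.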

How the results depend on the processing

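For both labels together, 5 carriers were called higher and 3 lower. These counts were 2 and 6 with quantile normalization, 8 lower with median-ratio scaling, and 10 and 9 with library weights. Leaving out each library in turn gave 0 to 7 higher and 0 to 7 lower. All genes called (908) became 1914 with library weights and 285 to 1312 with a library left out. With #8 alone, 2 higher became 0 with median-ratio scaling, with quantile normalization, without a filter and with the replicate block, and 0 to 3 with a library left out. The 2 lower became 1 without a filter and 1 with the replicate block, and 0 to 4 with a library left out. With #9 alone, 1 higher became 0 with median-ratio scaling, quantile normalization, no filter and the replicate block, 10 with library weights, and 0 to 7 with a library left out. The 1 lower became 3, 4 and 10 with median-ratio scaling, quantile normalization and library weights, 0 with the replicate block, and 0 to 4 with a library left out. Between #9 and #8, the 0 higher was 0 to 1 with a library left out. In TMD8, 1 higher became 0 uncentred, 6 at a pseudocount of 0.1 and 0 at a fold of 2, and 17 lower became 1 at a fold of 2. In SUDHL2, 4 higher became 7 at a pseudocount of 0.1 and 0 at a fold of 2, and 0 lower became 1 at a pseudocount of 0.1. The cause of these shifts was not tested. Of the other values for named genes, 66 lost their call, 6 gained one and none reversed. Deviations from group means of same-numbered libraries correlated at −0.19 to 0.26 over 9 pairs, and those of unlike-numbered libraries at −0.27 to 0.18 over 18 pairs. The same-numbered pairs that include a control did not exceed 0.06, so the numbers were not taken to pair hairpin and control libraries. Between #8 and #9, the block left the 0 calls at 0. With the replicate block, 4 carriers were higher and 4 lower with both labels and 775 genes in all were called. Depth in reads is unknown for every library. A relative value of 1 read was estimated from genes under 0.08 FPKM, as log2 against OCI-LY10 control replicate 1, and a higher value goes with fewer reads. It was −0.195 and −0.17 in control replicates 2 and 3, and 0.565, 0.285 and 0.60 with #8. With #9 it was −0.37, 0.285 and 0.01. The part of depth in the calls was not tested.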
